A study of Homo sapiens with 24 samples.

Results

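SVA elements are the youngest family of composite retrotransposons in the human genome, and the RNA of all 3733 SVA_A to SVA_F loci in the deposited repeat table was followed here in 3 liver cancer lines. The loci were every row of that table whose repeat name was SVA_A, SVA_B, SVA_C, SVA_D, SVA_E or SVA_F, out of 5298130 rows in all. Of the 3733 loci, 1674 lay outside every annotated gene body, 1934 overlapped a gene body, and 125 sat on haplotype or unplaced contigs where every library was listed at 0 reads. The series profiled total RNA of the hepatocellular carcinoma lines HepG2, SNU398 and SNU475 after a DNA methyltransferase inhibitor, an EZH2 inhibitor, both, or vehicle, and its stated aim was to examine the RNA made under each of these treatments. In each line the groups were the combination of 100 nM decitabine (5-Aza-CdR) with 500 nM GSK-126, decitabine alone at 100 nM, GSK-126 alone at 500 nM, and the vehicle DPBS. All were dosed daily for 3 days. HepG2 and SNU398 were collected on day 14 and SNU475 on day 21, so the SNU475 line and its later collection cannot be told apart. Each of the 12 groups held 2 libraries, called A and B, and the labels do not tell if the pair came from different cultures. The p-values below therefore measure the spread between these libraries, which may be technical. That spread is pooled over groups and moderated toward that of all sums, loci or genes tested, so small p-values do not rest on 2 libraries alone. The line genotype is given as wild type for every group, and each line is a single established tumour line.

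An SVA is built from a run of CCCTCT hexamers, an Alu-like stretch, a GC-rich variable-number tandem repeat, a SINE-R stretch derived from the retrovirus HERV-K, and a poly(A) tail. It encodes no protein and is copied by the machinery of LINE-1. The subfamilies are ordered by age, with SVA_A the oldest and SVA_E and SVA_F restricted to humans. SVA DNA is GC-rich and normally methylated, and the zinc finger protein ZNF91 binds it and recruits TRIM28 and the H3K9 methyltransferase SETDB1. Decitabine is incorporated into DNA and traps DNA methyltransferases, and GSK-126 blocks EZH2, the H3K27 methyltransferase of the Polycomb complex PRC2.

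The hexamer run is the sequence that marks the start of an SVA, and it was looked for in transcripts as a possible trace of SVA sequence in annotated RNA. A run of 3 CCCTCT units, or of 3 AGAGGG units on the other strand, was present in 20 of 206694 transcripts of the GENCODE v29 annotation (GRCh38), which is 0.009676%. These transcripts came from 18 genes, of which 9 had an SVA locus in their gene body in the hg19 gene table and the rest had none. The share of all genes that hold an SVA locus was not counted, and SVA sequence without an intact run is missed. A match describes letters in a transcript and is not a site.

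Sums over loci are given as RPM (reads per 1000000 reads of the library denominator), obtained by multiplying the deposited RPKM of a locus by its length in kilobases. Library denominators were 32600000 to 60370000 reads, and 2943 to 8675 of these reads fell on SVA loci, which is what limits the precision of a single locus. Whether strand was used in counting, and how reads that match several near-identical copies were counted, is not given in the sources used here, so the value of a single locus can include reads of its copies. ALB, a hepatocyte marker, was at 1772 to 5050 RPKM in HepG2, 0.394 to 25.2 in SNU398 and 0.229 to 25.2 in SNU475. KRT8, an epithelial keratin, was at most 1.39 RPKM in SNU398, against at least 52.4 in HepG2 and at least 364 in SNU475. The epithelial genes KRT18 and CDH1 were also lowest in SNU398. EPCAM, another epithelial gene, went the other way, at up to 7.32 RPKM in SNU398 and at most 0.734 in SNU475. The mesenchymal gene VIM was at least 364.9 RPKM in SNU398 and at least 180.5 in SNU475, against at most 2.634 in HepG2. The mesenchymal genes CDH2 and SPARC were highest in SNU475 and lowest in SNU398. FN1, also mesenchymal, did not follow VIM. It was at 227.8 to 275.3 RPKM in HepG2 and 170.5 to 270.1 in SNU475, against at most 10.23 in SNU398. The libraries with the highest ALB outside HepG2 were decitabine A of SNU398 and DPBS A of SNU475. The part of RNA from other cells in these libraries was not tested. Of 87 results of SNU398, 80 kept their call, or stayed within 1.5 times for a count, without decitabine A, and of 103 of SNU475, 78 did so without DPBS A. Sums, subfamilies and totals of called loci that changed are given so where they are described.

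In HepG2 the SVA RNA was highest after the combination, and each of the other treatments also stood above vehicle. Outside gene bodies the SVA sum was 96.1 and 97.6 RPM after the combination, 51.6 and 52.4 after decitabine, and 31.3 and 33.9 after GSK-126, against 21.2 and 22.2 in DPBS. The 4 groups did not overlap. The combination mean was 4.46 times the DPBS mean, and the decitabine mean was 2.39 times. On the log2(RPM + 0.5) scale used for the tests, the change against DPBS was 2.13 ± 0.06 (SE, adjusted p = 1.66e-38) for the combination, 1.24 ± 0.06 (adjusted p = 8.43e-27) for decitabine and 0.58 ± 0.06 (adjusted p = 1.99e-12) for GSK-126. All adjusted p-values are from a limma model over all 24 libraries with Benjamini-Hochberg adjustment. The combination exceeded decitabine alone by 0.89 ± 0.06 on the log2 scale (adjusted p = 3.69e-20). It also exceeded the sum of the 2 single changes, by 0.32 ± 0.08 on the log2 scale (the interaction term, adjusted p = 6.6e-04). In bulk RNA, more cells that express an element and more RNA of it per cell cannot be told apart.

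Inside gene bodies the HepG2 order of the groups was the same and the changes were smaller. The sum was 153 and 154.5 RPM after the combination, 103.8 and 102.2 after decitabine, 71.0 and 70.3 after GSK-126, and 57.4 and 56.6 in DPBS. The log2 changes against DPBS were 1.42 ± 0.05 for the combination, 0.85 ± 0.05 for decitabine and 0.31 ± 0.05 for GSK-126 (adjusted p from 7.55e-22 to 1.96e-06). The interaction term was 0.27 ± 0.07 (adjusted p = 7.18e-04). Rows inside a gene body can also take reads of the host gene's own pre-mRNA, and they were kept apart throughout.

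**Figure D1:**
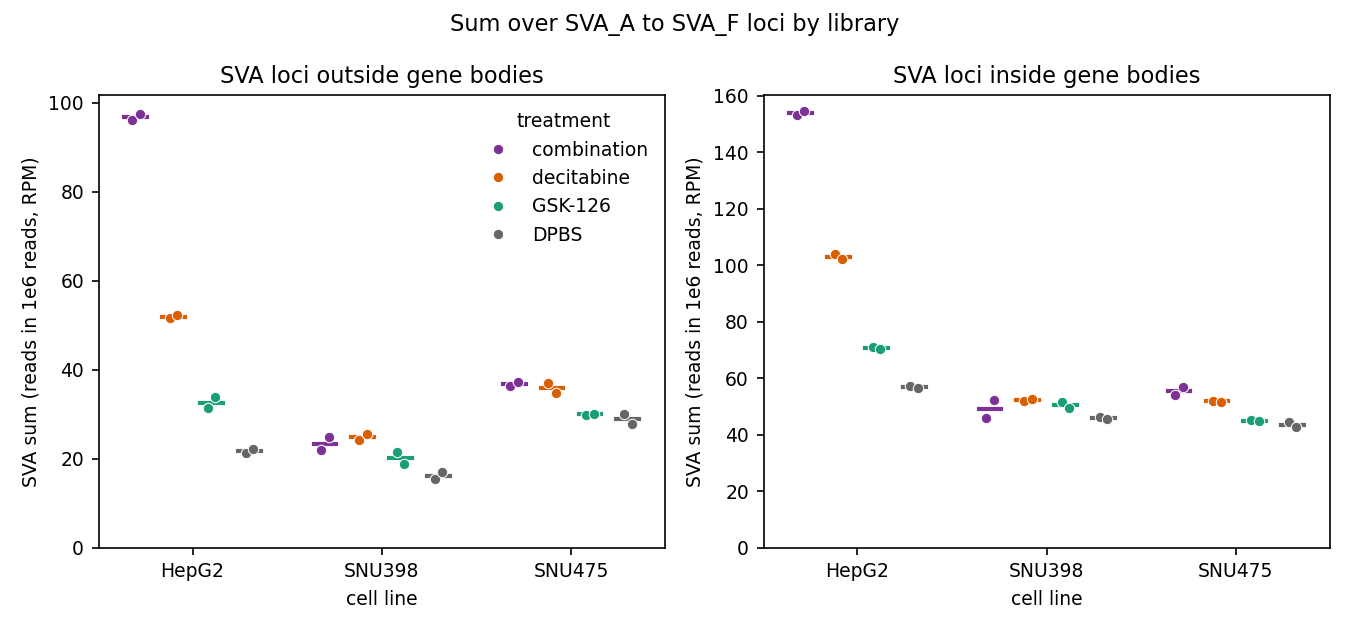
Sum of RPM over all SVA loci outside gene bodies (left) and inside gene bodies (right), with 1 point per library, a bar at the mean of 2 libraries, and the treatments side by side within each cell line. The HepG2 combination libraries, at 96.1 and 97.6 RPM outside gene bodies, lie above every other library, and the groups of SNU398 and SNU475 lie much closer to their DPBS libraries.

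SNU398 had the least SVA RNA in vehicle, and its treated sums rose by less than those of HepG2. Outside gene bodies it had 21.9 and 24.9 RPM after the combination, 24.2 and 25.6 after decitabine, and 21.4 and 18.8 after GSK-126, against 15.4 and 16.9 in DPBS. Every treated library was above both DPBS libraries, and the combination and decitabine libraries overlapped. The log2 change was 0.52 ± 0.06 for the combination (adjusted p = 2.12e-10), 0.61 ± 0.06 for decitabine (adjusted p = 2.54e-12) and 0.30 ± 0.06 for GSK-126 (adjusted p = 7.27e-05). Without the decitabine A library, the one of high ALB, the decitabine change was 0.65. Scaling all libraries by genes gave 0.47 for GSK-126, since that scaling moves this comparison by 0.17, and moves the other treatment comparisons by less than 0.1. The combination differed from decitabine alone by -0.09 ± 0.06 (adjusted p = 0.305), which did not pass the test. The combination fell short of the sum of the single changes by 0.39 on the log2 scale (interaction -0.39 ± 0.08, adjusted p = 3.11e-04). Inside gene bodies the changes in SNU398 were 0.09 for the combination (adjusted p = 0.126), 0.18 for decitabine (adjusted p = 0.0168) and 0.13 for GSK-126 (adjusted p = 0.0306). These inside calls rest on single libraries. The decitabine call was lost without decitabine A (adjusted p = 0.0636), decitabine B (0.153), DPBS A (0.0833) or DPBS B (0.0995), and the GSK-126 call without DPBS A (0.0869), DPBS B (0.133) or GSK-126 A (0.204).

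SNU475 had the most SVA RNA outside gene bodies in vehicle, and here decitabine with or without GSK-126 gave a modest rise. The sum was 36.3 and 37.3 RPM after the combination, 37.1 and 34.7 after decitabine, and 29.9 and 30.1 after GSK-126, against 30.03 and 27.9 in DPBS. The combination and decitabine libraries lay above both DPBS libraries, and the GSK-126 libraries overlapped them. The log2 change was 0.34 ± 0.06 (adjusted p = 1.29e-06) for the combination and 0.31 ± 0.06 (adjusted p = 1.3e-05) for decitabine. It was 0.05 ± 0.06 for GSK-126 (adjusted p = 0.458), and the interaction was -0.02 ± 0.08 (adjusted p = 0.917). Without DPBS A, the library of high ALB, the combination change was 0.39 and the decitabine change 0.36. Inside gene bodies the sum rose by 0.35 ± 0.05 after the combination (adjusted p = 2.5e-07) and 0.25 ± 0.05 after decitabine (adjusted p = 4.8e-05), and by 0.38 and 0.28 without DPBS A.

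The DPBS libraries themselves differed between lines. Outside gene bodies SNU398 was 0.42 lower than HepG2 on the log2 scale (log2 difference -0.42 ± 0.06, adjusted p = 1.26e-08). SNU475 was 0.41 ± 0.06 higher than HepG2 (adjusted p = 2e-08), and each of its DPBS libraries, at 30.03 and 27.9 RPM, lay above those of HepG2, at 21.2 and 22.2. Among the subfamilies SVA_C had the widest of these gaps on the log2 scale, with 0.281 and 0.529 RPM in SNU398, against 2.66 and 2.49 RPM in HepG2 and 4.61 and 4.62 in SNU475. In RPM, SVA_D lay further apart between SNU398, at 9.64 and 10.7, and SNU475, at 16.0 and 14.4. The locus near TRIM56 described below holds the larger part of SVA_C in DPBS of HepG2 and SNU475. The SVA_C difference of SNU475 over SNU398 was 2.51 ± 0.11 (adjusted p = 3.38e-28).

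Every SVA subfamily outside gene bodies rose in HepG2 after the combination, with the largest fitted change in the human-specific SVA_F and the smallest in the oldest, SVA_A. Differences between subfamilies were not tested. SVA_F had 16.2 and 16.9 RPM after the combination, 8.51 and 8.84 after decitabine, and 3.04 and 4.25 after GSK-126, against 2.30 and 2.01 in DPBS. Its 4 groups did not overlap. SVA_D, the subfamily with the most RNA, had 51.0 and 52.1 RPM after the combination, 26.9 and 27.7 after decitabine, 17.1 and 18.1 after GSK-126, and 11.4 and 11.7 in DPBS. SVA_B had 13.6 and 13.8 RPM after the combination, 6.27 and 5.99 after decitabine, 3.77 and 3.61 after GSK-126, and 2.24 and 2.72 in DPBS. For SVA_A the combination libraries, at 5.77 and 5.38 RPM, were closer to the decitabine libraries, at 4.68 and 4.60, with 3.73 and 3.65 after GSK-126 and 2.28 and 3.03 in DPBS. The log2 changes of the combination were 2.68 for SVA_F, 2.26 for SVA_B, 2.11 for SVA_D, 1.47 for SVA_C, 1.27 for SVA_E and 0.95 for SVA_A, with SEs from 0.07 to 0.13. The added 0.5 RPM shrinks the change of low sums, above all of SVA_E, which had 1.32 and 1.51 RPM after the combination and 0.309 and 0.271 in DPBS. As plain ratios of the combination mean to the DPBS mean the order was SVA_F at 7.68, SVA_B at 5.52, SVA_E at 4.87, SVA_D at 4.46, SVA_C at 3.11 and SVA_A at 2.10. All 6 passed the test, beside 43.7% of all sums tested outside gene bodies.

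Per kilobase of annotated sequence, SVA_D led in HepG2 after the combination, with 0.0652 RPM per kb, followed by 0.0510 for SVA_B, 0.0502 for SVA_C, 0.0493 for SVA_F, 0.0345 for SVA_A and 0.0131 for SVA_E. In DPBS the HepG2 order per kilobase was SVA_A at 0.0165, SVA_C at 0.0162, SVA_D at 0.0146, SVA_B at 0.00924, SVA_F at 0.00642 and SVA_E at 0.00269. These are levels per kilobase averaged over 2 libraries. Neighbours in these orders, such as SVA_B, SVA_C and SVA_F after the combination, were not tested against each other.

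Most repeats rose in HepG2 after either single agent, and fewer did after the combination. After decitabine all 6 SVA subfamilies outside gene bodies rose, but so did 82.8% of all sums tested there, and the median of the 585 subfamilies was 0.71. After GSK-126, 5 of 6 rose (SVA_E was at 0.22 and did not pass), beside 59.0% of all sums. After the combination the median over all subfamilies was 0.17, and SVA_F ranked 3, SVA_B 7, SVA_D 9, SVA_C 27, SVA_E 36 and SVA_A 63 of 585 by log2 change. Against decitabine alone the median subfamily was at -0.46, and 5.97% of all sums passed as higher. Yet 5 of the 6 SVA subfamilies passed as higher in that comparison, with SVA_B at 1.10, SVA_D at 0.91, SVA_F at 0.89, SVA_C at 0.78 and SVA_E at 0.55. SVA_B ranked first of 585, and SVA_D, SVA_F and SVA_C ranked 3, 5 and 7. SVA_A was at 0.24 and did not pass. The interaction term passed for SVA_B (0.60), SVA_C (0.38) and SVA_D (0.32) in HepG2, and for SVA_C (-0.77), SVA_D (-0.30) and SVA_F (-0.76) in SNU398, where the combination fell short of the sum. It passed for 0 of 6 in SNU475. Of all sums outside gene bodies, the interaction was higher for 4.27% and lower for 79.0% in HepG2, higher for 16.4% and lower for 5.97% in SNU398, and higher for 31.4% and lower for 1.37% in SNU475.

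The youngest LINE-1 subfamilies did not pass in the comparison of the combination with decitabine. L1HS, the LINE-1 subfamily that still moves and whose proteins copy SVA, had 4.17 and 4.27 RPM after the combination, 3.38 and 4.29 after decitabine, and 2.05 and 1.71 after GSK-126, against 0.941 and 0.984 in DPBS. The combination and decitabine libraries of L1HS overlapped, and the log2 difference between them was 0.13 ± 0.10 (adjusted p = 0.225). L1PA2, its closest relative, stood at 0.07 ± 0.06 in that comparison (adjusted p = 0.278). The young Alu subfamilies AluYa5 and AluYb8 exceeded decitabine by 0.43 and 0.46. LTR5_Hs, the promoter repeat of HERV-K, was 0.28 higher and its internal part HERVK-int 0.46 lower (log2 difference -0.46). HERVK-int and the SINE-R part of SVA share ancestry, and their combination changes against DPBS were -0.01 for HERVK-int and 0.95 to 2.68 for the SVA subfamilies.

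**Figure D2:**
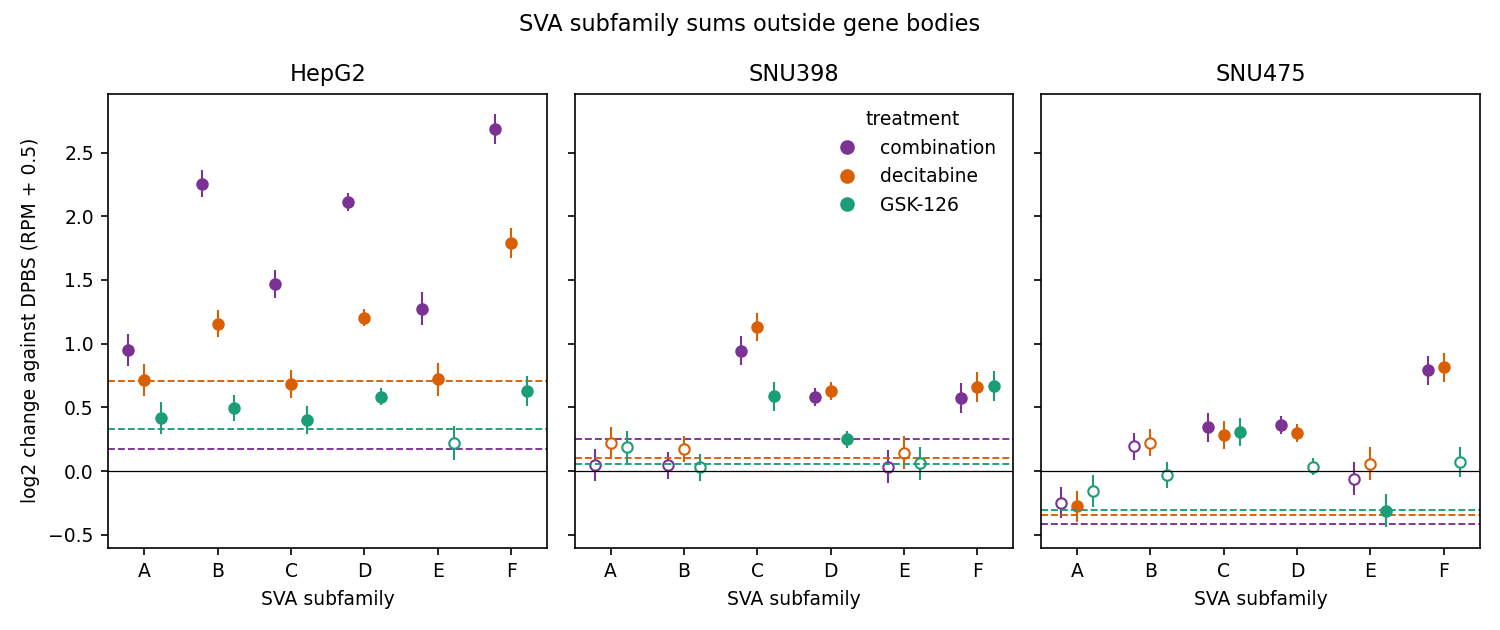
Log2 change against DPBS of the SVA_A to SVA_F sums outside gene bodies in each line, with bars for the SE, filled points for changes that passed an adjusted p of 0.05 and open points for those that did not. Dashed lines are the median over 585 subfamilies for the treatment of the same colour. In HepG2 the combination points lie from 0.95 to 2.68 above a median of 0.17, and in SNU475 SVA_F lies at 0.79 and 0.81 while the medians are below 0.

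In SNU398, SVA_C, SVA_D and SVA_F outside gene bodies rose after every treatment. SVA_C had 1.11 and 1.35 RPM after the combination, 1.52 and 1.41 after decitabine, and 0.890 and 0.803 after GSK-126, against 0.281 and 0.529 in DPBS. Its treated and DPBS libraries did not overlap. The log2 changes of SVA_C were 0.94, 1.13 and 0.59 for combination, decitabine and GSK-126. Those of SVA_D were 0.58, 0.63 and 0.25, and those of SVA_F were 0.57, 0.66 and 0.67. These 3 of 6 subfamilies passed in each comparison, beside 47.8% of all sums for the combination, 18.4% for decitabine and 17.7% for GSK-126. SVA_A, SVA_B and SVA_E did not pass in any of these comparisons.

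In SNU475 the largest fitted change was that of SVA_F. It had 3.82 and 4.55 RPM after the combination, 4.24 and 4.26 after decitabine, and 2.33 and 2.35 after GSK-126, against 2.51 and 1.92 in DPBS. The GSK-126 libraries lay between the DPBS libraries. SVA_F rose by 0.79 ± 0.12 after the combination and 0.81 ± 0.12 after decitabine, and ranked 8 and 7 of 585, while the median subfamily was at -0.42 and -0.34. SVA_C, SVA_D and SVA_F rose after both treatments, which is 3 of 6 beside 5.12% of all sums for the combination and 4.10% for decitabine. SVA_A was lower after decitabine (log2 change -0.28), where the median subfamily was at -0.34 and 61.9% of all sums were lower. After GSK-126 SVA_C was higher by 0.31, beside 2.05% of all sums. SVA_E was lower after GSK-126 (log2 change -0.31), where the median subfamily was also at -0.31 and 57.8% of all sums were lower. Without DPBS A, 4 of these calls were lost: SVA_A after decitabine (adjusted p = 0.0813), SVA_C after decitabine (0.0809) and GSK-126 (0.069), and SVA_E after GSK-126 (0.14). Without DPBS B, GSK-126 A or GSK-126 B, no subfamily was called higher after GSK-126.

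A single locus holds the larger part of SVA_C outside gene bodies in DPBS of HepG2 and SNU475, and a smaller part of it in HepG2 after the combination, where SVA_C had 8.19 and 7.82 RPM in all. It lies at chr7:100735044-100736635 (hg19), 27 bases from the gene body of TRIM56, an E3 ubiquitin ligase of the innate antiviral response. Its values in HepG2 were 3.496 and 3.69 RPM after the combination, 2.58 and 2.44 after decitabine, and 2.76 and 3.01 after GSK-126, against 2.01 and 1.67 in DPBS. TRIM56 itself passed as higher in all 3 comparisons, with log2 changes of 0.67, 0.43 and 0.40. In SNU398 both the locus and TRIM56 were near 0 in DPBS, with 0 reads at the locus and 0.002 RPKM for the gene, and both rose after decitabine (locus 0.217 and 0.334 RPM) and after the combination (0.185 and 0.201 RPM). In SNU475 the locus had 3.13 to 4.31 RPM in every group and passed in no comparison. A TRIM56 transcript of 10952 bases in GENCODE v29 holds the run of 3 hexamers, at base 4749. The locus is outside gene bodies by the hg19 gene table, and whether that transcript covers it was not tested. When the 3 highest SVA loci of the line were left out, the SVA_C change after GSK-126 in HepG2 was -0.06 in place of 0.40, and that in SNU475 was 0.12 (adjusted p = 0.477).

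Inside gene bodies all 6 subfamilies rose in HepG2 after each of the treatments, beside 32.1% of all sums for the combination, 82.5% for decitabine and 72.4% for GSK-126. The combination changes ran from 1.30 for SVA_D to 1.85 for SVA_E, and the median of the 784 subfamilies was -0.01. In SNU398, SVA_A and SVA_E rose after the combination (44.1% of all sums), SVA_D and SVA_E after decitabine (7.13%), and SVA_A and SVA_D after GSK-126 (11.8%). In SNU475, SVA_D, SVA_E and SVA_F rose after the combination, by 0.45, 0.36 and 0.65, beside 5.86% of all sums. The same subfamilies rose after decitabine, by 0.37, 0.45 and 0.42, beside 6.37%. SVA_F was the 1 of 6 called higher after GSK-126, by 0.18, beside 5.48%. That call was lost under limma-voom, without a filter, from SNU475 alone, with a replicate block, and without DPBS B, GSK-126 A or GSK-126 B. SVA_B was lower inside gene bodies of SNU475 after decitabine and after GSK-126 (log2 changes -0.21 and -0.19), where the median subfamily was at -0.32 and -0.19 and 63.7% and 47.5% of all sums were lower. Without DPBS A, the calls of SVA_B after GSK-126 (adjusted p = 0.0626) and of SVA_E after the combination (0.0745) were lost in SNU475. Without decitabine A, those of SVA_D (0.0623) and SVA_E (0.0891) after decitabine were lost in SNU398.

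The rise in HepG2 was spread over many loci. Outside gene bodies 951 SVA loci had at least 1 read after the combination, 794 after decitabine and 525 after GSK-126, against 424 in DPBS. It took 54 loci to hold 50% of the SVA sum after the combination and 31 after decitabine, but 6 after GSK-126 and 7 in DPBS. Because the libraries with more SVA reads also detect more loci, these counts are given as descriptions. In SNU475 the loci that held 50% of the sum numbered 33 after the combination, 31 after decitabine and 10 after GSK-126, against 12 in DPBS. In SNU398 they numbered 10, 11 and 7, against 6 in DPBS.

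**Figure D3:**
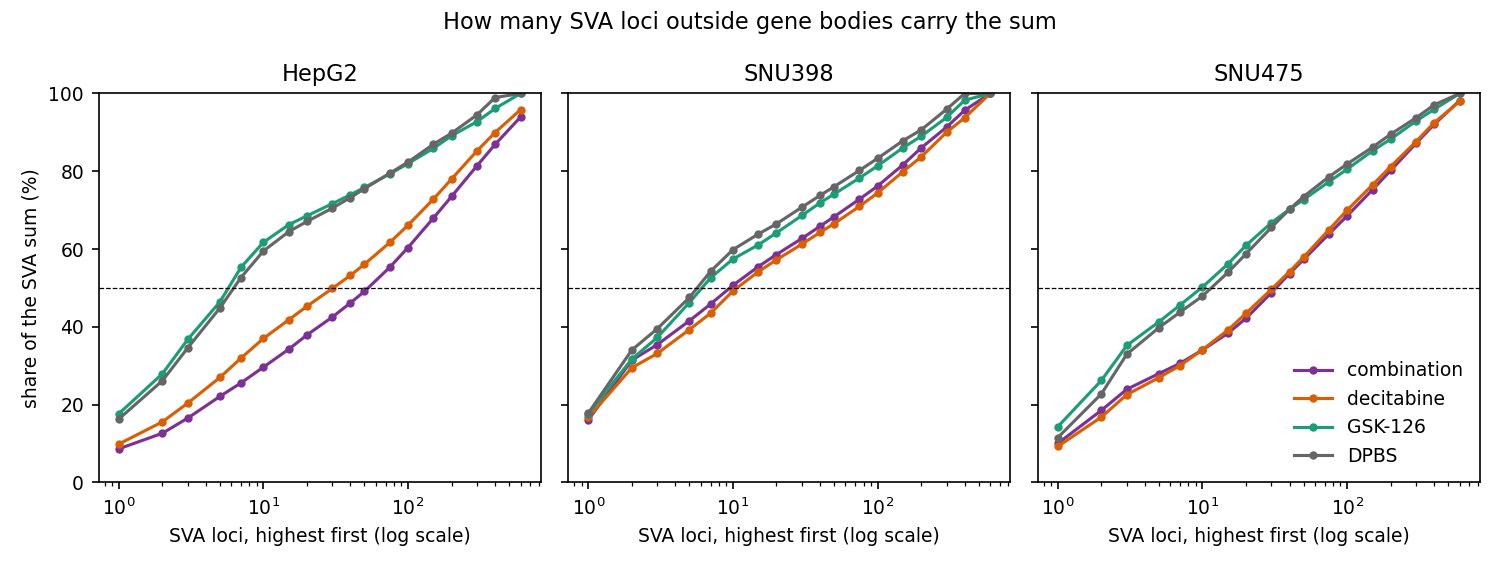
Share of the SVA sum outside gene bodies (percent, mean of 2 libraries) held by the highest loci, with loci on a log axis from the highest down and the dashed line at 50%. In HepG2 the DPBS and GSK-126 curves reach the line at 7 and 6 loci, and the decitabine and combination curves at 31 and 54.

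Loci too low to be tested one by one also summed higher after the combination and decitabine than in DPBS in every line. Of the 1674 loci outside gene bodies, 1572 never reached 0.2 RPM in 2 libraries. Together they summed to 40.03 and 44.3 RPM after the combination, 20.4 and 20.9 after decitabine, and 8.13 and 9.17 after GSK-126, against 5.52 and 5.94 in DPBS of HepG2. The net gain of the combination over DPBS in HepG2 was 75.1 RPM, of which 51.5% came from the loci tested one by one and 36.4 RPM from the rest. In SNU475 the untested loci summed to 14.3 and 15.3 RPM after the combination, 14.8 and 13.7 after decitabine, and 8.16 and 8.22 after GSK-126, against 8.30 and 7.34 in DPBS. In SNU475 the net gain after the combination was 7.87 RPM, made up of summed gains of 14.96 RPM and summed losses of -7.09 RPM over loci. The tested loci gave a net 0.875 RPM of it and the untested loci 6.997 RPM. In SNU398 the untested loci summed to 7.79 and 8.40 RPM after the combination, 9.01 and 9.13 after decitabine, and 6.75 and 6.83 after GSK-126, against 4.63 and 5.35 in DPBS.

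Single loci were tested where at least 2 of the 24 libraries reached 0.2 RPM, which 256 of the 3733 loci did: 102 outside and 154 inside gene bodies. By subfamily these were 137 SVA_D, 40 SVA_F, 34 SVA_B, 22 SVA_A, 19 SVA_C and 4 SVA_E. Of all SVA loci, 3064 had a read in some library. The median length of an SVA row was 1152 bases, and 218 of the 256 tested rows were at least 1 kb long. A locus that reached 0.2 RPM only in its highest group had to differ between groups, so the counts below describe the loci and are set beside the same counts for all 61166 repeat loci tested. Outside gene bodies, 84 and 98 SVA loci reached 0.2 RPM in the combination libraries of HepG2, against 13 and 13 in its DPBS libraries. Many SVA loci thus entered through the group in which they are then counted as higher. For the other repeat loci this was not counted, so their shares are no like-for-like measure. Also, 715 SVA rows start within 50 bases of the row before them, and such neighbours can be pieces of 1 element.

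In HepG2, 177 of the 256 loci were higher and 2 lower after the combination, where 14.5% of all repeat loci were higher and 8.66% lower. Of these 177, 143 changed at least 2-fold. After decitabine 129 were higher and 2 lower (31.8% and 2.62% of all repeat loci), and after GSK-126 33 were higher and 5 lower (17.1% and 3.08%). As shares of the 256 loci, those higher were 69.1% after the combination, 50.4% after decitabine and 12.9% after GSK-126. The GSK-126 share lies below the 17.1% of all repeat loci. Directly against decitabine, 100 loci were higher and 3 lower after the combination, where 3.81% of all repeat loci were higher and 24.8% lower. The higher loci after the combination included 99 of 137 SVA_D, 28 of 40 SVA_F, 20 of 34 SVA_B, 16 of 22 SVA_A, 11 of 19 SVA_C and 3 of 4 SVA_E. The median log2 change over the 256 loci was 1.18 after the combination, 0.62 after decitabine and 0.14 after GSK-126.

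The other lines had fewer called loci. In SNU475, 39 loci were higher and 14 lower after the combination (3.30% and 11.9% of all repeat loci), 33 higher and 11 lower after decitabine (2.62% and 8.68%), and 5 higher and 9 lower after GSK-126 (1.67% and 4.98%). In SNU398, 11 were higher and 1 lower after the combination (4.42% and 1.08%), 9 were higher and 0 lower after decitabine (1.34% and 0.387%), and 4 were higher and 5 lower after GSK-126 (2.94% and 3.94%). In SNU398 the share higher after the combination, 4.30%, was close to that of all repeat loci. The SNU398 share higher after GSK-126, 1.56%, was below that of all repeat loci. In SNU475 the share higher after GSK-126, 1.95%, was close to it. The counts are sensitive to single libraries in SNU475: without DPBS A the decitabine counts were 20 higher and 6 lower, 8 were lower after the combination, and 3 after GSK-126. Of the 39 loci higher after the combination in SNU475, 31 (79.5%) were also among the 177 of HepG2, which is 17.5% of those. Of the 11 in SNU398, 7 (63.6%) were among the HepG2 loci, which is 3.96% of those. Of all 256 tested loci, 69.1% were higher in HepG2 after the combination, 15.2% in SNU475 and 4.30% in SNU398. The overlaps were not tested against these shares. An SVA_A locus and an SVA_D locus were higher in all 3 lines after the combination, and they are described below.

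**Figure D4:**
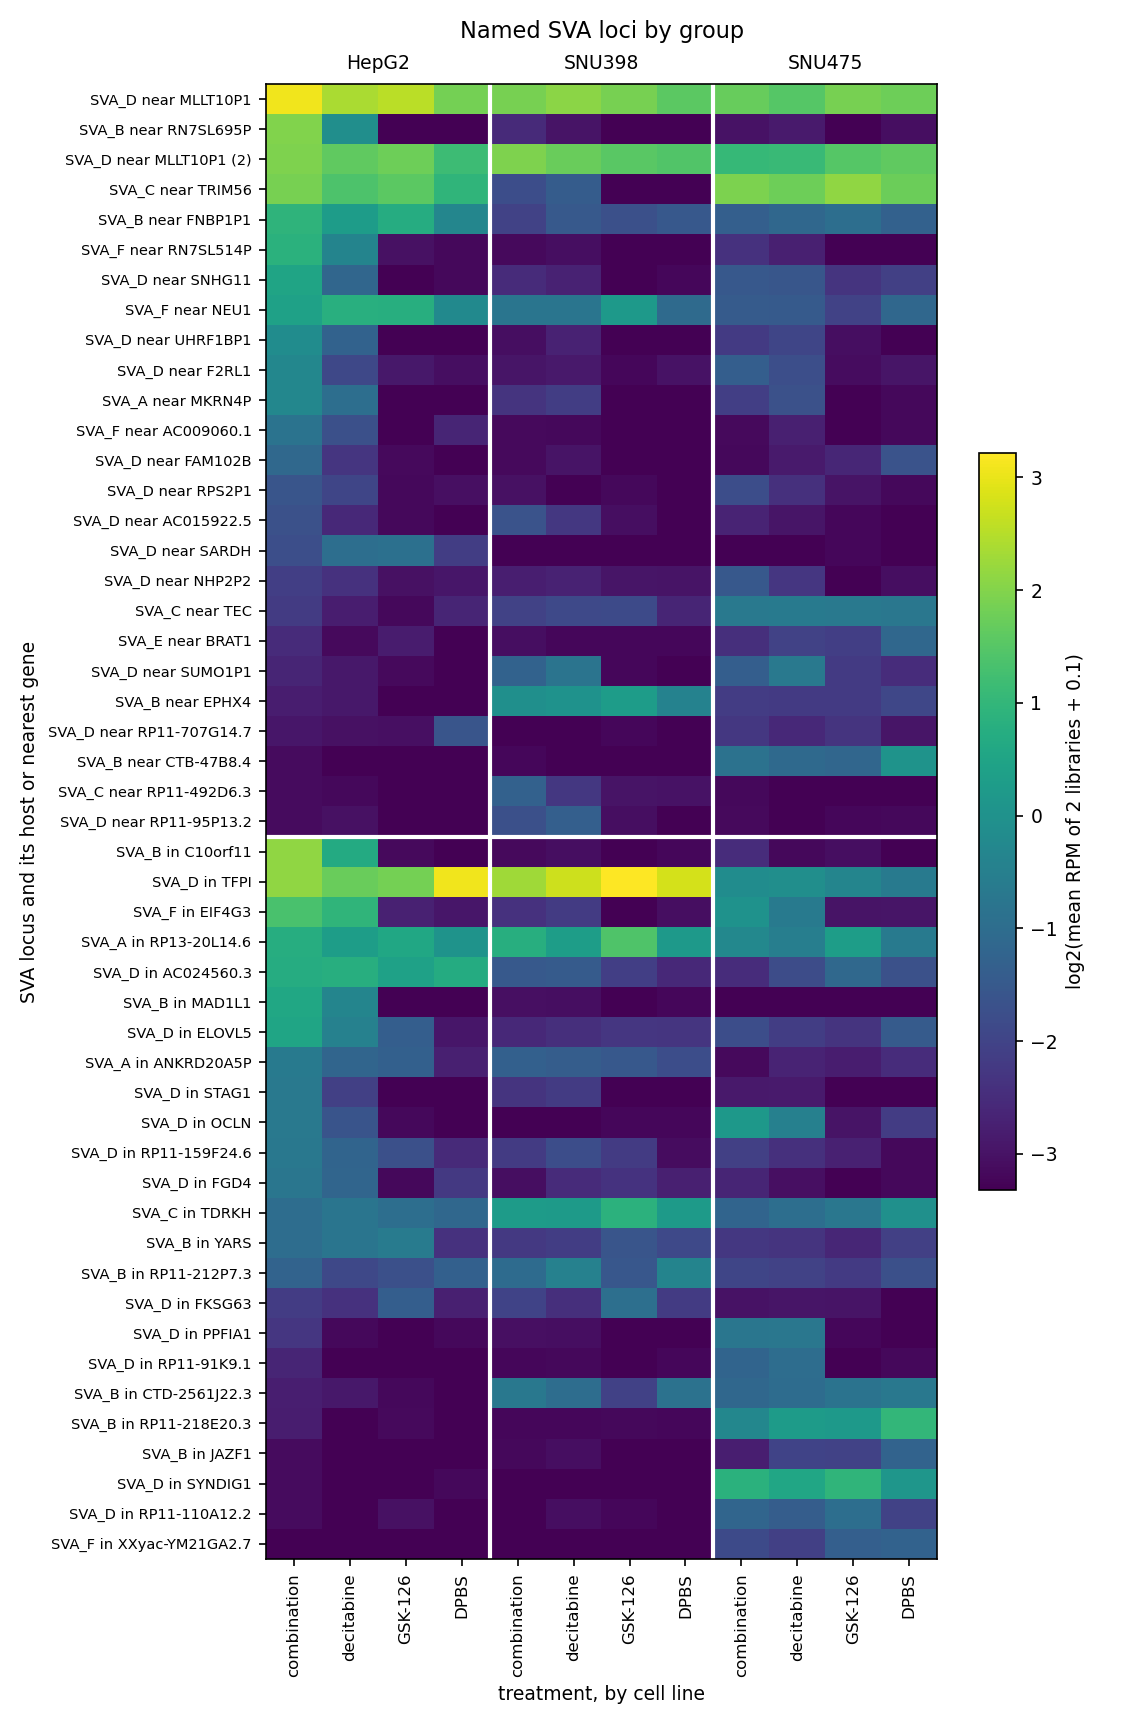
Level of the 49 named SVA loci in each of the 12 groups, as log2 of the mean RPM of 2 libraries plus 0.1, with loci outside gene bodies above the white line and those inside below it, each named by its nearest or host gene. Several loci are at the floor of the scale in DPBS and GSK-126 of HepG2 and high after the combination, such as the SVA_B loci near RN7SL695P and in C10orf11, while the SVA_D locus in TFPI is lower in treated HepG2.

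The locus with the largest change outside gene bodies was an SVA_B at chr18:48642924-48644482 (hg19), 9.51 kb from the 7SL pseudogene RN7SL695P. It had 4.11 and 3.63 RPM after the combination and 0.935 and 0.741 after decitabine, and it had 0 reads in both GSK-126 and both DPBS libraries of HepG2. The fitted log2(RPM + 0.1) change was 5.31 ± 0.26 for the combination (adjusted p = 1.09e-13) and 3.22 ± 0.26 for decitabine (adjusted p = 7.96e-10). Against libraries at 0 such fitted changes depend on the added 0.1 RPM and are no bound. An SVA_F at chr20:5007570-5009319, 0.942 kb from RN7SL514P, had 1.53 and 1.92 RPM after the combination, 0.730 and 0.605 after decitabine and at most 0.0228 in the GSK-126 and DPBS libraries. An SVA_D at chr20:37089308-37091248, 9.74 kb from the snoRNA host gene SNHG11, had 1.53 and 1.10 RPM after the combination and 0.320 and 0.380 after decitabine, with at most 0.0214 in GSK-126 and DPBS. SNHG11 passed as higher too, with a log2 change of 0.67 after the combination. For these loci the decitabine libraries were intermediate and GSK-126 alone did not pass the test.

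The loci with the most SVA RNA were already present in vehicle. An SVA_D at chr20:29639726-29641199 and another at chr20:29638868-29639719, both near the pseudogene MLLT10P1, lie side by side and can be pieces of 1 element. The longer piece had 8.13 and 8.60 RPM after the combination, 5.36 and 4.89 after decitabine, and 5.27 and 6.25 after GSK-126, against 3.73 and 3.35 in DPBS of HepG2. Its log2 change after the combination was 1.22 ± 0.15 (adjusted p = 5.03e-07). In SNU475 the shorter piece was lower after the combination, with 1.84 and 2.14 RPM against 2.89 and 3.02 in DPBS (log2 change -0.55 ± 0.14, adjusted p = 0.00679). This is the change of the shorter piece alone and not of both pieces together. In SNU398 an SVA_B at chr1:92490913-92492465 near EPHX4 was the third highest locus, with 0.877 and 0.842 RPM after the combination and 0.895 and 0.407 in DPBS, and it did not pass.

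Inside gene bodies the largest change in HepG2 was an SVA_B in C10orf11, at chr10:77509387-77511125. It had 4.14 and 4.50 RPM after the combination, 1.32 and 1.66 after decitabine, and 0 and 0.0226 after GSK-126, with 0 reads in both DPBS libraries. Its log2 change after the combination was 5.47 ± 0.23 (adjusted p = 2.05e-14), while C10orf11 itself changed by 0.28 (adjusted p = 6.35e-06). An SVA_B in MAD1L1, which codes for a spindle checkpoint protein, lies at chr7:2200739-2202237. It had 1.504 and 1.25 RPM after the combination and 0.913 and 0.471 after decitabine, with 0 reads after GSK-126 and in DPBS, and MAD1L1 changed by 0.22 after the combination. An SVA_D in ELOVL5, a fatty acid elongase gene, lies at chr6:53169267-53171062. It had 1.41 and 1.25 RPM after the combination, 0.684 and 0.584 after decitabine, and 0.183 and 0.392 after GSK-126, against 0.0395 and 0.0216 in DPBS. ELOVL5 itself was lower after the combination, with a log2 change of -0.35 (adjusted p = 9.66e-08). An SVA_D in the cohesin gene STAG1, at chr3:136441507-136443460, had 0.582 and 0.465 RPM after the combination and 0.137 and 0.135 after decitabine, with 0 reads after GSK-126 and in DPBS, while STAG1 was lower after the combination (log2 change -0.29).

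Some inside loci were shared between lines. An SVA_F in EIF4G3, a translation initiation factor gene, lies at chr1:21349733-21351405. In HepG2 it had 2.09 and 2.76 RPM after the combination, 1.67 and 2.02 after decitabine, 0.0602 and 0.0452 after GSK-126, and 0 and 0.0636 in DPBS. In SNU475 it had 0.920 and 0.882 RPM after the combination, 0.435 and 0.656 after decitabine, 0 and 0.0535 after GSK-126, and 0.0569 and 0 in DPBS. The combination and decitabine libraries stood apart from the others in both lines. The log2 change after the combination was 4.29 ± 0.30 in HepG2 and 2.998 ± 0.30 in SNU475 (adjusted p = 4.83e-11 and 1.59e-07). EIF4G3 itself was 0.19 higher in HepG2 and lower in SNU475 (log2 change -0.37), so the locus and its host moved apart in SNU475. An SVA_D in OCLN, which codes for the tight junction protein occludin, had 0.521 and 0.523 RPM after the combination and 0 in both DPBS libraries of HepG2, and 1.02 and 1.03 RPM against 0.189 and 0.0584 in SNU475. It lies at chr5:68810357-68812368, and OCLN was lower in SNU475 after the combination (log2 change -0.45). An SVA_D in the liprin gene PPFIA1, at chr11:70140657-70142847, had 0.484 and 0.504 RPM after the combination and 0.515 and 0.502 after decitabine in SNU475, with 0.0175 and 0 after GSK-126 and 0 in both DPBS libraries. PPFIA1 rose by 0.12 after the combination in SNU475.

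The SVA_A locus higher in all 3 lines lies at chrX:40721567-40722923, 26.3 kb from the pseudogene MKRN4P. After the combination it had 0.674 and 0.756 RPM in HepG2, 0.138 and 0.0543 in SNU398, and 0.121 and 0.147 in SNU475. After decitabine it had 0.365 and 0.471, 0.0909 and 0.167, and 0.237 and 0.174 RPM in these lines. In SNU398 all of these values lay below the 0.2 RPM of the locus filter, so its calls there rest on few reads. The locus had 0 reads after GSK-126 in every line, and in DPBS a single SNU475 library reached 0.019 RPM. MKRN4P was also called higher after the combination in each line, by 1.54 in HepG2, 0.41 in SNU398 and 0.91 in SNU475. The SVA_D locus higher in all 3 lines lies at chr17:15770110-15771695, 2.64 kb from the pseudogene AC015922.5, and had 0.184 and 0.233 RPM after the combination and 0 in both DPBS libraries of HepG2. In SNU398, the largest change was at an SVA_D at chr20:52470321-52471770, 20.02 kb from SUMO1P1, with 0.254 and 0.384 RPM after the combination, 0.399 and 0.555 after decitabine, and 0 in both DPBS libraries.

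Fewer SVA loci rose after GSK-126 alone than after decitabine, and some of them were well expressed in vehicle. The SVA_A locus at chr17:80411077-80412333, in the antisense gene RP13-20L14.6, was the only SVA locus higher after GSK-126 in all 3 lines. In SNU398 it had 2.51 and 2.67 RPM after GSK-126, against 1.09 and 1.01 in DPBS, and the log2 change was 1.22 ± 0.17 (adjusted p = 3.12e-05). It had 1.17 and 1.10 RPM after GSK-126 in SNU475, against 0.471 and 0.608 in DPBS, and 1.40 and 1.40 in HepG2, against 0.928 and 0.942. The groups did not overlap in any line, and RP13-20L14.6 passed as higher in SNU398 and SNU475 and not in HepG2. Since the use of strand in counting is not given, reads of this antisense gene and of its partner may not be separated. An SVA_B in YARS, the tyrosyl-tRNA synthetase gene, at chr1:33269340-33270876, had 0.547 and 0.575 RPM after GSK-126 against 0.0584 and 0.126 in DPBS of HepG2, and YARS rose with it by 1.34. An SVA_F 2.28 kb from NEU1, the lysosomal sialidase gene, at chr6:31821055-31823156, was higher after GSK-126 in HepG2 by 0.99 and in SNU398 by 1.25, and NEU1 was higher in both lines. An SVA_D at chr16:70258098-70259429, within RP11-296I10.6 and FKSG63, had 0.304 and 0.276 RPM after GSK-126 in HepG2, against 0.0586 and 0.0413 in DPBS. The same locus had 0.414 and 0.426 RPM after GSK-126 in SNU398, against 0.132 and 0.107 in DPBS.

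A few loci fell. The largest in level was an SVA_D at chr2:188420653-188422627 in TFPI, the gene of an inhibitor of blood coagulation. In HepG2 it had 4.33 and 4.18 RPM after the combination, 2.99 and 3.38 after decitabine, and 3.71 and 3.36 after GSK-126, against 8.30 and 8.45 in DPBS. Its log2 changes were -0.96, -1.37 and -1.22, each ± 0.14. TFPI itself was lower after the combination only (log2 change -0.66), and 0.15 and 0.19 higher after decitabine and GSK-126. In SNU398 the locus stood at 7.40 and 6.34 RPM in DPBS although TFPI was at 0.491 RPKM, and after the combination it had 4.43 and 5.09 RPM while TFPI rose by 1.34. In SNU475 locus and host moved the other way: the locus rose by 0.52 after the combination and TFPI was lower (log2 change -0.91). The other HepG2 locus lower after the combination was an SVA_D at chr11:73646655-73648767, with 0.0317 and 0.0296 RPM against 0.232 and 0.230 in DPBS.

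In SNU475 some SVA loci were lower after every treatment. The SVA_B in the noncoding gene ENSG00000258711, at chr14:51423000-51423996, was among them. It had 0.751 and 0.693 RPM after the combination, 1.09 and 1.10 after decitabine, and 1.09 and 0.996 after GSK-126, against 1.74 and 2.06 in DPBS. The log2 change after the combination was -1.28 ± 0.23 (adjusted p = 3.79e-04), and the GSK-126 call was lost without DPBS A (adjusted p = 0.0818). Its host gene was lower after the combination (log2 change -0.72). It was at most 0.0578 RPM in any library of HepG2 or SNU398. An SVA_B at chr5:157463381-157465057, 40.05 kb from CTB-47B8.4, had 0.580 and 0.315 RPM after the combination, 0.455 and 0.290 after decitabine, and 0.374 and 0.320 after GSK-126, against 0.963 and 0.884 in DPBS. An SVA_E at chr7:2573126-2574918, 2.59 kb from BRAT1, had 0.145 and 0.0215 RPM after the combination against 0.301 and 0.412 in DPBS. An SVA_D at chr1:109078098-109079480, 23.2 kb from FAM102B, went opposite ways: it was lower after the combination in SNU475, with 0 and 0.0207 RPM against 0.207 and 0.235 in DPBS, and higher in HepG2, with 0.461 and 0.261 RPM against 0 in both DPBS libraries.

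The host genes of the loci that rose in HepG2 after the combination were themselves higher about as often as lower. Of the 106 loci inside gene bodies that were higher in HepG2 after the combination, 36 lay in a gene that was higher, 33 in one that was lower, 14 in one not called and 23 in one too low to test. Over all genes tested, 40.6% were higher and 25.9% lower in that comparison. After decitabine the hosts of the 78 higher loci were 35 higher, 16 lower, 14 not called and 13 untested, beside 35.9% of all genes higher and 18.3% lower. After GSK-126 the hosts of the 26 higher loci were 13 higher, 6 lower, 4 not called and 3 untested, beside 31.0% and 21.7%. After the combination the change of the locus exceeded that of the host in 81 of the 83 loci with a tested host, with a median excess of 1.5 on the log2 scale. Since these loci were picked for being higher, that excess is a description. In SNU475 the 23 loci higher after the combination lay in 6 higher, 7 lower and 4 uncalled genes and 6 untested ones, and the 10 lower loci lay in 8 lower genes, 1 higher and 1 not called, where 25.3% of all genes were higher and 29.6% lower. In SNU398 the 3 loci higher after the combination lay in genes that were not called, where 28.9% of all genes were higher and 18.4% lower. Of the HepG2 loci outside gene bodies that were higher after the combination, 70 had a gene within 50 kb. That gene was higher for 17, lower for 10, not called for 6 and untested for 37. Of the 102 tested outside loci, 72 lay within 10 kb of a gene body, and the part of unannotated gene extensions in their values was not tested. With gene bodies widened by 10 kb, the HepG2 combination change of the SVA sum was 2.80.

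**Figure D5:**
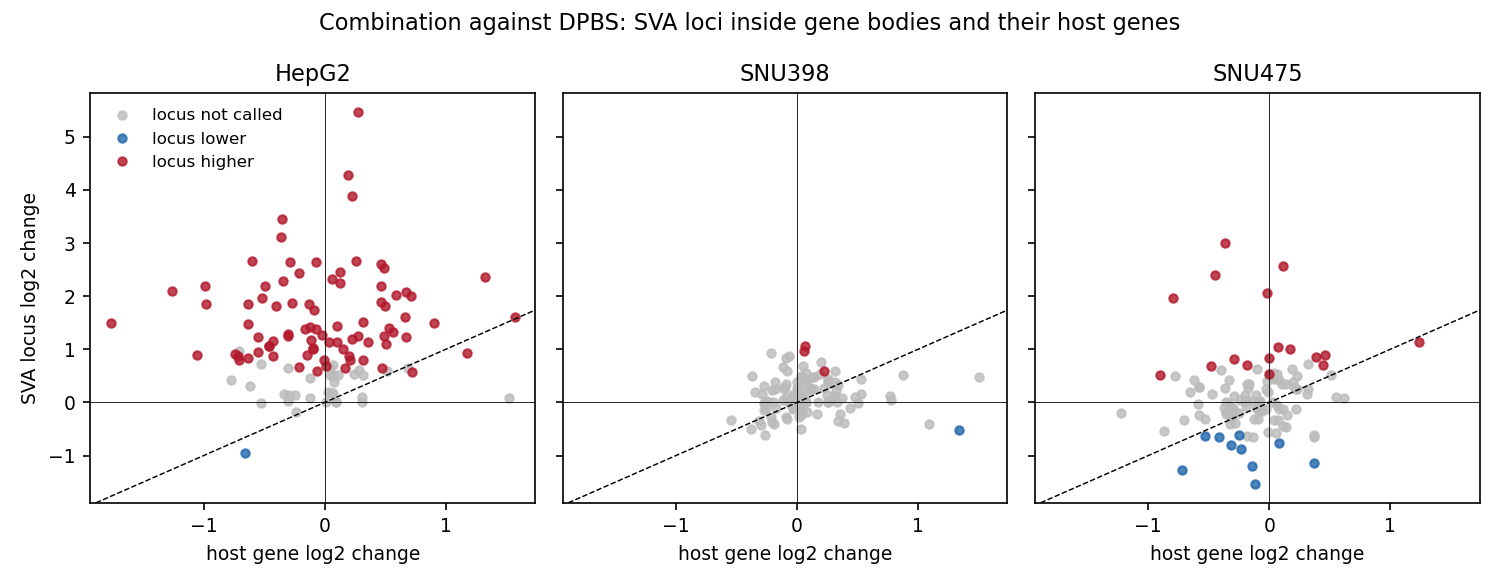
Log2 change of each tested SVA locus inside a gene body (y axis, RPM + 0.1) against that of its host gene (x axis, RPKM + 0.5) for the combination against DPBS, with loci called higher in red, lower in blue and not called in grey, and the dashed line where locus and host change alike. In HepG2 the red points lie on both sides of a host change of 0 and nearly all above the line, the SVA_B in C10orf11 at 5.47 against 0.28.

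The genes known to silence SVA or restrict retroelements were described as a list of 36, of which 33 were high enough to test. After the combination 12 were higher and 17 lower in HepG2, 10 higher and 15 lower in SNU398, and 15 higher and 13 lower in SNU475. Of all genes, 40.6% were higher and 25.9% lower in HepG2 in that comparison, 28.9% and 18.4% in SNU398, and 25.3% and 29.6% in SNU475. The list's median log2 change in HepG2 was -0.19, where the median over all genes was 0.08. After decitabine the counts were 11 higher and 15 lower in HepG2, 14 and 8 in SNU398, and 14 and 13 in SNU475, beside 35.9% higher and 18.3% lower of all genes in HepG2, 23.4% and 15.4% in SNU398, and 24.2% and 27.3% in SNU475. After GSK-126 they were 7 higher and 21 lower in HepG2, 5 and 18 in SNU398, and 14 and 15 in SNU475, beside 31.0% and 21.7%, 30.01% and 22.4%, and 21.5% and 28.5% of all genes in these lines.

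ZNF91, the zinc finger protein that binds SVA, was lower in HepG2 after every treatment, and lowest after the combination. It had 1.67 and 1.82 RPKM after the combination, 3.74 and 3.77 after decitabine, and 4.16 and 3.75 after GSK-126, against 4.66 and 4.78 in DPBS, and its log2 change after the combination was -1.19 (adjusted p = 2.31e-11). In SNU475 it was also lower, with 0.917 and 0.921 RPKM after the combination, 1.17 and 0.996 after decitabine, and 1.27 and 1.27 after GSK-126, against 2.01 and 2.12 in DPBS. In SNU398 it was 0.17 higher after the combination, with 4.21 and 4.39 RPKM against 3.93 and 3.73 in DPBS. Its partner TRIM28 was, after the combination, 0.31 higher in HepG2, 0.41 higher in SNU475 and lower in SNU398 (log2 change -0.21). In HepG2 TRIM28 did not pass after decitabine (0.04) and was 0.23 higher after GSK-126. SETDB1 did not pass in HepG2 after the combination (0.09) and was lower in SNU475 (log2 change -0.18). In HepG2 SETDB1 was 0.13 higher after decitabine and 0.47 higher after GSK-126. ZNF611, another zinc finger gene of the list, did not pass in HepG2 after the combination (log2 change -0.07). It was 0.17 higher there after decitabine and lower after GSK-126 (log2 change -0.13). After the combination ZNF611 was 0.20 higher in SNU398 and did not pass in SNU475 (-0.01).

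Other silencing genes fell in HepG2 after the combination. HELLS, a chromatin remodeller needed for DNA methylation of repeats, had 1.45 and 1.73 RPKM after the combination, 4.13 and 3.69 after decitabine, and 2.01 and 1.91 after GSK-126, against 6.19 and 6.39 in DPBS. CBX5, which codes for the heterochromatin protein HP1 alpha, had a log2 change of -1.11, and the H3K9 methyltransferase SUV39H2 one of -1.07. FAM208A, which codes for the HUSH subunit TASOR, was lower (log2 change -0.67), while the HUSH subunit MPHOSPH8 and the HUSH partner MORC2 were each 0.40 higher. UHRF1, which directs DNMT1 to newly copied DNA, was lower in HepG2 (log2 change -0.74) and higher in SNU475 by 0.84. EZH2, the target of GSK-126, showed the same split, at -0.71 in HepG2 and 0.44 in SNU475. Among the restriction factors, the cytidine deaminase genes APOBEC3B and APOBEC3C were lower in HepG2 (log2 changes -0.65 and -0.84), as was the antiviral gene ZC3HAV1 (log2 change -0.32). The DNA exonuclease gene TREX1 was higher by 0.31, and SAMHD1, MOV10 and ADAR were higher by 0.12, 0.09 and 0.09. In SNU398 APOBEC3C had 1.71 and 1.84 RPKM after the combination against 0.082 and 0.088 in DPBS, a log2 change of 1.85. The part of these genes in the SVA changes was not tested.

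Over the 12 group means, the repeat subfamilies outside gene bodies most like the SVA total were LTR12_ (Pearson r = 0.88), MER61C (0.87) and MER57F (0.86). The genes most like it were ZGPAT (0.97), BIK (0.95) and GLTPD1 (0.95). These correlations describe 12 means, in which the HepG2 groups lie far from the rest, and groups of 1 line share their line.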

How the data were processed

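Total RNA of HepG2, SNU398 and SNU475, extracted with Trizol, treated with DNase I and depleted of ribosomal RNA, was sequenced from 1 end as stranded libraries, per the labels' protocols. Reads were aligned with HISAT2 to hg19 and counted with featureCounts, per the submitters' processing notes. For the versions, the use of strand and the handling of reads with several matches, the sources used here give nothing. The authors deposited RPKM values, one table for repeat loci and another for 63677 genes, both rounded to 3 decimals.

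RPM of a locus is its deposited RPKM times its length in kilobases. Values of 1 read showed library denominators of 32600000 to 60370000 reads, and 100% of the values checked then came out as whole reads within 0.15 reads. Of the 5298130 repeat rows, 4494509 were kept after rows were dropped by repeat name, and a row was inside a gene body when it overlapped any gene of the gene table. Sums of RPM per subfamily were tested with limma 3.58.1 (trend and robust, R 4.3.3) on log2(RPM + 0.5), with 1 model over 24 libraries, a mean per group and 12 residual degrees of freedom. The spread of each row was moderated toward a trend over all rows, so each p-value also draws on the other rows. Single loci were tested on log2(RPM + 0.1), and genes on log2(RPKM + 0.5) after scaling by median-of-ratios factors from 8211 genes. Filters required 2 libraries with at least 1 RPM for a sum, 0.2 RPM for a locus or 0.5 RPKM for a gene. Tests were two-sided, with Benjamini-Hochberg adjustment across all sums, loci or genes of a comparison and calls at an adjusted p under 0.05. Each treatment of a line is set against the same DPBS libraries, so these comparisons share their control. The procedure was tested on simulated data.

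The loci, gene list and tests were chosen with earlier results of these data known. Named loci were, in each line, the 3 loci outside gene bodies of highest mean, and in each comparison, outside and inside gene bodies apart, the 3 highest and 2 lowest called changes without overlap of treated and DPBS libraries. Loci shared by all lines were also described. Sequences of the transcripts with the hexamer run are not reported here. Alternatives were other pseudocounts, filters and scaling, each line alone, a replicate block, limma-voom on recovered reads, widened gene bodies, and leaving out each library or the 3 highest loci. Those for the list of silencing genes were chosen after seeing the data. Python 3.11.15, pandas 2.3.3 and matplotlib 3.10.9 were used for tables and figures.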

Additional observations from a re-analysis of the deposited data

Results flagged for a closer look

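The treatment effects on the SVA sum differed between lines, by a test of the difference itself in the limma model (adjusted over all sums of that comparison). Line and collection day cannot be told apart where SNU475 is one of the lines compared.

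Outside gene bodies, the combination effect was 1.614 larger in HepG2 than in SNU398 (log2 difference, adjusted p = 4.93e-24) and 1.789 larger than in SNU475 (adjusted p = 1.39e-26). The decitabine effect of HepG2 was 0.6316 larger than that of SNU398 and 0.9341 larger than that of SNU475, and that of SNU398 was 0.3025 larger than that of SNU475. The GSK-126 effect of HepG2 was 0.2724 larger than that of SNU398 and 0.5228 larger than that of SNU475, and that of SNU398 was 0.2504 larger than that of SNU475. Without DPBS A of SNU475 this last difference was 0.20 and did not pass (adjusted p = 0.088). Of the 9 differences outside gene bodies, 8 passed. The difference of the combination effect between SNU398 and SNU475, at 0.18 (adjusted p = 0.0539), did not.

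Inside gene bodies, the combination effect of HepG2 was 1.332 larger than that of SNU398 and 1.076 larger than that of SNU475. The decitabine effect of HepG2 was 0.6698 larger than that of SNU398 and 0.5967 larger than that of SNU475. The GSK-126 effect of HepG2 was 0.1718 larger than that of SNU398 and 0.257 larger than that of SNU475. The combination effect was smaller in SNU398 than in SNU475 by a log2 difference of -0.2563 (adjusted p = 1.59e-03). Of the 9 differences inside gene bodies, 7 passed.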

How the results depend on the processing

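Of 1515 alternative values of the SVA sums, the numbers of subfamilies and loci called and the gene list, 1407 kept their direction and side of the threshold, or stayed within 1.5 times for a count, and 11 reversed. Of 3045 alternative values of single subfamilies, named loci and counts by place, 2643 did so and 3 reversed. The HepG2 combination change of the SVA sum outside gene bodies, reported as 2.13, was 2.13 from the HepG2 libraries alone, 2.19 with gene scaling, 2.80 with gene bodies widened by 10 kb and 2.47 without the 3 highest loci.

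Loci called higher after the combination in HepG2 numbered 314 with a filter of 0.1 RPM and 53 with 0.5 RPM, and after decitabine 206 and 44. With 0.5 RPM they numbered 18 for GSK-126 in HepG2, and 15 for the combination and 16 for decitabine in SNU475. From the libraries of the line alone they numbered 82 for decitabine and 12 for GSK-126 in HepG2, 7 for the combination and 1 for GSK-126 in SNU398, and 23 for the combination, 15 for decitabine and 1 for GSK-126 in SNU475. Under limma-voom on recovered reads they numbered 15 for GSK-126 in HepG2, 21 for the combination in SNU398 and 3 for GSK-126 in SNU475. A pseudocount of 0.5 RPM gave 5 for decitabine in SNU398. Without gene scaling, 7 silencing genes were higher after decitabine in HepG2 and 3 after GSK-126 in SNU398.

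Of the 6 subfamilies, the number higher inside gene bodies of SNU475 after GSK-126 was 0 under limma-voom, without a filter and from SNU475 alone, and 2 with gene scaling. Inside gene bodies of SNU398 after decitabine it was 1 without a filter. With gene bodies widened it was 2 in HepG2, 1 in SNU398 and 0 in SNU475 after GSK-126 outside, and without the 3 highest loci it was 0 in SNU475.

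With gene scaling, the line difference of the GSK-126 effect between HepG2 and SNU398 was 0.0509 inside and 0.16 outside gene bodies and no longer passed. That between SNU398 and SNU475 inside was 0.21 and passed, as did the inside combination change of SNU398 at 0.12. The inside interaction of SNU475 turned to -0.00359. With gene bodies widened, the outside GSK-126 differences of HepG2 from SNU398 (0.29) and of SNU398 from SNU475 (0.29) and the SNU398 interaction (-0.30) no longer passed. In SNU475 the combination against decitabine turned to -0.041, GSK-126 against DPBS to -0.0204, and SVA_A after decitabine to 0.15. SVA_C after GSK-126 in HepG2 turned to -0.24 with widened gene bodies and to -0.06003 without the 3 highest loci, and the SNU475 interaction to 0.0060 without them. The outside combination difference of SNU398 from SNU475 passed at 0.33 with widened gene bodies, 0.19 under limma-voom and 0.18 with gene scaling. The causes were not tested.

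The libraries' letters were checked for pairing: correlations of deviations of same-lettered libraries ran from -0.268 to 0.28 in HepG2, -0.168 to 0.117 in SNU398 and -0.0531 to 0.158 in SNU475. With 2 libraries a group, these values cannot tell if same-lettered libraries share a culture or batch. With the replicate block, the outside combination difference of SNU398 from SNU475 stayed at 0.18 and passed. The block gave 1 higher subfamily after decitabine inside gene bodies of SNU398 and 0 after GSK-126 inside those of SNU475, and it changed no other call of an SVA sum and none of the other total counts by over 1.5 times. Of 192 values of single subfamilies, named loci and counts by place, 185 kept their call or count with the block, 5 lost their call and 2 counts moved.

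With each library left out in turn, loci called higher ran from 21 to 37 for GSK-126 in HepG2, from 6 to 11 for the combination, 5 to 10 for decitabine and 1 to 4 for GSK-126 in SNU398, and from 21 to 40 for the combination, 20 to 34 for decitabine and 2 to 5 for GSK-126 in SNU475. Subfamilies called higher inside gene bodies ran from 1 to 3 for the combination, 0 to 2 for decitabine and 1 to 2 for GSK-126 in SNU398, and from 0 to 1 for GSK-126 in SNU475, inside and outside. The SVA sum inside gene bodies of SNU398 ran from -0.0010 to 0.19 for the combination, 0.17 to 0.19 for decitabine, 0.10 to 0.17 for GSK-126, -0.18 to 0.0070 for the combination against decitabine and -0.31 to -0.13 for the interaction. Outside gene bodies of SNU475 it ran from -7.424e-05 to 0.10 for GSK-126, -0.0105 to 0.0834 for the combination against decitabine and -0.0681 to 0.0365 for the interaction. The GSK-126 difference of HepG2 from SNU398 ran from 0.14 to 0.20 inside and 0.18 to 0.37 outside. Outside, that of SNU398 from SNU475 ran from 0.16 to 0.34, and the combination difference between them from 0.0856 to 0.26. The 7 reversals among these were -0.0105 for the combination against decitabine without decitabine B, 0.0031, 0.0312 and 0.0365 for the interaction without combination A, decitabine A and DPBS B, and -7.424e-05 for GSK-126 without DPBS B, all outside gene bodies of SNU475. Inside gene bodies of SNU398 they were -0.0010 for the combination without combination B and 0.0070 for the combination against decitabine without combination A.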
